A study of Mus musculus with 12 samples.

Results

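Cxcl1, Cxcl2, Cxcl3 and Cxcl5 encode CXC chemokines that attract neutrophils, and these 4 genes were taken by their names from an RNA-seq table of 29428 mouse genes. The 12 libraries come from STHdhQ7 and STHdhQ111 cells, immortal striatal lines from mice in which huntingtin (HTT) carries 7 or 111 glutamines. Nontreated cells of the normal line (Q7-C) and of the mutant line (Q111-C) were compared with cells given 100 ng/ml murine interferon-gamma (IFNγ) and 5 μg/ml lipopolysaccharide (LPS) together for 24 h (Q7-T and Q111-T), with 3 libraries in each of the 4 groups. Each genotype is represented by 1 cell line, so genotype and line cannot be told apart, and no library received IFNγ or LPS alone. The study calls its libraries biological replicates, but the labels do not say whether those of a group came from separate cultures, so p-values measure only the spread between these libraries.

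The products of Cxcl1, Cxcl2, Cxcl3 and Cxcl5 carry a glutamate-leucine-arginine (ELR) motif directly before the CXC cysteines and act on the receptor CXCR2, by which neutrophils are drawn out of the blood. In many cells their transcription is switched on within hours by LPS, which signals through TLR4 and CD14, and by IL-1, TNF and IL-17, largely through NF-κB with the cofactor IκBζ (Nfkbiz). Their mRNAs are short-lived, and proteins such as tristetraprolin (Zfp36) and regnase-1 (Zc3h12a) promote the decay of chemokine mRNAs. In the brain, such chemokines are best known from astrocytes, microglia and endothelial cells under inflammation.

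The coding sequence around the ELR motif shows what the genes share and where they differ. The stretches below were read from the GENCODE M21 transcripts, 5′ to 3′, and the capitals mark the codons of the ELR motif and of the 2 cysteines of the CXC motif.
Cxcl1: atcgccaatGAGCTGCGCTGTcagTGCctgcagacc
Cxcl2: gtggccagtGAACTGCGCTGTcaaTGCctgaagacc
Cxcl3: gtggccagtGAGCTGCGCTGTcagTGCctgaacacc
Cxcl5: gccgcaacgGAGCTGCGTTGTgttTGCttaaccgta
The ELR motif begins at codon 30 of Cxcl1, codon 33 of Cxcl2 and Cxcl3, and codon 50 of Cxcl5. The whole coding sequences of Cxcl2 and Cxcl3 were 89.7% identical, those of Cxcl1 and Cxcl2 76% and those of Cxcl1 and Cxcl3 72.7%, whereas Cxcl5 was 51.5% to 52.7% identical to the other 3. Of the 50-base words of the Cxcl2 transcript, 5.76% also occur in Cxcl3, and 6.31% of those of Cxcl3 occur in Cxcl2, so a small part of the reads of these 2 genes could have been assigned to either. None of the words of Cxcl1 occurs in another gene, and 3.08% of those of Cxcl5 do.

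All 4 genes lie on the plus strand of chromosome 5 within 146.6 kb (GRCm38). Cxcl5 is at chr5:90759360-90761624, Cxcl3 at chr5:90786103-90789600, Cxcl1 at chr5:90891241-90893115 and Cxcl2 at chr5:90903871-90905938, and no annotated gene overlaps any of them. The 140 bases before the RefSeq starts of Cxcl3, Cxcl1 and Cxcl2 are given here (GRCm38.p6, plus strand). The RefSeq starts are not those of the table, so the last 28 bases shown for Cxcl2 and the last 4 for Cxcl1 lie inside the gene as the table gives it. These 3 genes rose together in Q111 cells, but so did Cxcl5, whose promoter is not reported here. A link between the letters shown and the response was therefore not tested. The capitals mark matches on either strand to a κB type of motif, GGG and TTCC with any 3 bases between them.
Cxcl3, chr5:90785961-90786100: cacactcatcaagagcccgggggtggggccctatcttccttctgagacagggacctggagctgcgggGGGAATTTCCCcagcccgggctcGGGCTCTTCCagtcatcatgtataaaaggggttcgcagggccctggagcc
Cxcl1, chr5:90891105-90891244: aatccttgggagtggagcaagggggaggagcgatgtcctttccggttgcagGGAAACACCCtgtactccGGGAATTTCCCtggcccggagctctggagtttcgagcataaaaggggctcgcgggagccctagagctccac
Cxcl2, chr5:90903759-90903898: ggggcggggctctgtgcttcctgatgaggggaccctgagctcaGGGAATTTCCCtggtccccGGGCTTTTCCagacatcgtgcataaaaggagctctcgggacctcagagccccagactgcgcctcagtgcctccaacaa
Each of the 3 promoters holds 3 matches, of which 2 overlap on opposite strands in the 11-base word GGGAATTTCCC. This word begins 73 bases before the RefSeq start of Cxcl3, 71 before that of Cxcl1 and 97 before that of Cxcl2, or 75, 67 and 69 bases before the starts in the table. It was found as the longest word shared by these 3 promoters, whose genes all rose in Q111 cells, so its rarity, 14 of 32851 promoter windows of 300 bases (0.0426%), is a description only. The motif itself is in 5.56% of the windows. In the same windows of 300 bases, TTCNNNGAA, a gamma-activated type of motif present in 8.3% of all windows, and TGANTCA, an AP-1 type present in 7.81%, had no match in any of the 3 genes. TTNNGNAA, a C/EBP type present in 40.7%, had 1 match in Cxcl2, and TATAAA, present in 13.6%, had 1 match in Cxcl3. These matches describe letters and not sites of binding.

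The libraries held between 57505990 and 96417834 estimated counts, or about 14376498 to 24104458 read pairs if 1 pair stands for 4 counts. No source states this unit. It was taken from the low counts, in which multiples of 4 were 1.45 to 1.84 times as frequent as neighbouring even numbers, and many low counts are not multiples of 4. Expression is given below in TPM, which accounts for transcript length and sequencing depth. The TPM of all genes listed summed to 688352 to 719623 per library, with 716658 to 719623 in Q7-C and 688352 to 692194 in Q111-C. The cause of this difference was not tested. Fold changes with their standard errors come from edgeR's fit to the estimated counts. A gene was called where its adjusted p (Benjamini-Hochberg over the 16127 genes tested) was under 0.05 and its change at least 2-fold. All 4 genes passed the filter of 0.5 TPM in at least 3 libraries, but Cxcl3 reached this level in Q111-T only and Cxcl2 in Q111-T and 2 libraries of Q7-T. Of the 12 libraries, 11 were nearest in expression to a library of their own group, while Q7-T replicate 2 was nearest to Q7-C replicate 1. In Q7-T replicate 2 the TPM of Cxcl1 was 0.271 times the mean of the other 2 Q7-T libraries, that of Cxcl5 0.542 times, that of Cxcl3 0.649 times and that of Cxcl2 0.129 times. After the TMM scaling used in the fits these ratios were 0.445, 0.891, 1.13 and 0.208, so that on this scale Cxcl3 was not lower there. Values without this library are given where they bear on a result.

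Cxcl1, which encodes the chemokine also called KC, was the most abundant of the 4 in every library and differed both by treatment and by line. In Q7-C it was at 3.78, 11.1 and 6.61 TPM in replicates 1 to 3, and in Q7-T at 143, 34.7 and 113.3 TPM. In Q111-C it was at 65.0, 70.5 and 105 TPM, and in Q111-T at 2510, 2461 and 2178 TPM. The ranges of Q7-T and Q111-C overlap, Q7-C lies below both and Q111-T lies above all other libraries. In Q111-T, Cxcl1 ranked between 19 and 26 among the 16127 genes by TPM, against 6919 to 9097 in Q7-C, 692 to 2319 in Q7-T and 1022 to 1830 in Q111-C. The mean of Q7-C was 7.17 ± 3.70 TPM and that of Q7-T 97.0 ± 56.0, while Q111-C averaged 80.2 ± 21.7 and Q111-T 2383 ± 179.3 TPM (SD, n = 3).

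Cxcl5, the ligand also called LIX, was near the lower end of detection in nontreated cells of both lines and rose in both after IFNγ/LPS. Its TPM was 0.383, 0.661 and 0.882 in Q7-C and 0.374, 0.668 and 0.537 in Q111-C. After treatment it was 65.7, 30.5 and 46.8 TPM in Q7-T and 95.3, 104.7 and 92.9 TPM in Q111-T. The nontreated groups overlap, and the treated libraries lie above them in both lines. Nontreated cells had means of 0.642 ± 0.250 (Q7-C) and 0.527 ± 0.148 TPM (Q111-C), and treated cells 47.7 ± 17.6 (Q7-T) and 97.6 ± 6.25 TPM (Q111-T; SD, n = 3).

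Cxcl2 and Cxcl3, which encode the chemokines MIP-2 and dendritic cell inflammatory protein 1, were far less abundant. Cxcl2 was at 0, 0.0831 and 0.222 TPM in nontreated Q7 cells and at 0.802, 0.0996 and 0.740 after treatment, and in Q111 cells at 0, 0 and 0.101 before and 2.30, 3.46 and 1.83 after it. Cxcl3 was at 0, 0.0308 and 0 TPM in nontreated Q7 cells and at 0.401, 0.159 and 0.0885 after treatment, and in Q111 cells at 0, 0 and 0.0298 before and 1.37, 1.36 and 1.05 after it. For both genes the Q111-T libraries were the highest 3 of the 12. Few reads stand behind the other values. Cxcl2 had 55, 8 and 79 estimated counts in Q7-T and 174, 237 and 107 in Q111-T, and Cxcl3 had 46, 23 and 17 and then 174, 157 and 103. A floor of 12 estimated counts per library, taken as 3 read pairs, was not exceeded by Cxcl3 in any library of Q7-C and Q111-C nor by Cxcl2 in any library of Q111-C. Such limits cover counting error only, and the floor and the bounds computed from it rest on the assumed unit of the counts.

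**Figure D1:**
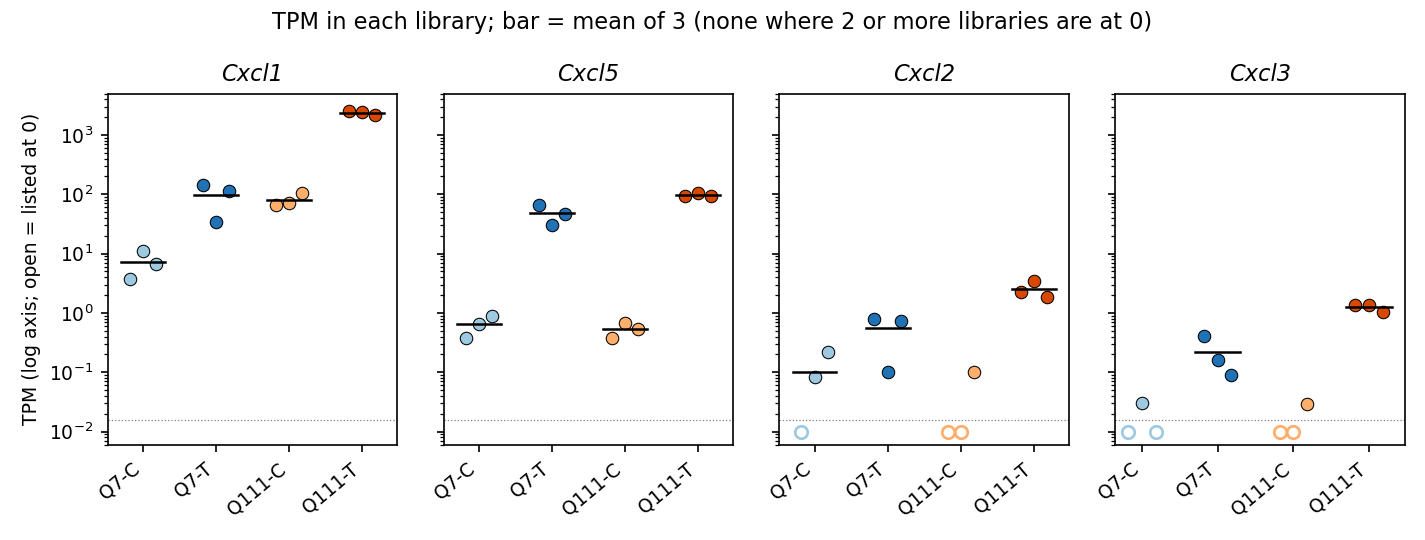
TPM of Cxcl1, Cxcl5, Cxcl2 and Cxcl3 in each of the 12 libraries on a log axis, by group, with open circles under the dotted line for libraries at 0 and a bar for the mean of 3. Cxcl1 is the only one of the 4 whose Q111-C libraries (65.0 to 105 TPM) lie above all Q7-C libraries (3.78 to 11.1 TPM), and in each panel the Q111-T libraries are the highest. Of all genes tested, 38.8% were higher without overlap in Q111-C than in Q7-C and 12.6% lower.

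To see how the normal line responded, Q7-T was compared with Q7-C. Cxcl1 and Cxcl5 rose, so that 2 of the 4 were called higher and 0 lower, where 2.93% of all genes tested were called higher and 1.11% lower. Cxcl1 rose 14.6-fold (log2 3.87 ± 0.39 SE, edgeR adjusted p = 6.953e-05) and Cxcl5 rose 81.1-fold (log2 6.34 ± 0.28 SE, edgeR adjusted p = 1.98e-07). Without Q7-T replicate 2 these log2 changes were 4.17 and 6.40. Cxcl3 did not pass (edgeR adjusted p = 0.0563), although its Q7-T libraries all lay above those of Q7-C, as for 5.55% of all genes tested (8.9% lay wholly below). The mean of Cxcl3 in Q7-T was 2.83-fold the floor in Q7-C. It was called in 6 of 23 alternatives, among them DESeq2 (adjusted p = 0.00127) and the fit without Q7-C replicate 2, the only library of that group with a count for Cxcl3 (log2 8.09, edgeR adjusted p = 0.0278). Cxcl2 had a log2 change of 2.38 ± 1.12 SE (edgeR adjusted p = 0.343), with an interval from -0.073 to 4.83 (95%), and its groups overlap. This change was 2.80 without Q7-T replicate 2 and 3.62 without Q7-C replicate 3, and it was called in neither fit. Over the 4 genes the median log2 change was 4.07, or 3.12 with Cxcl3 set to its bound, against 0.0033 over all genes.

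The same treatment was then compared in the mutant line, Q111-T against Q111-C. All 4 genes rose, whereas 8.28% of all genes tested were called higher and 2.96% lower. Cxcl5 rose 192.9-fold (log2 7.59 ± 0.30 SE, edgeR adjusted p = 7.971e-08) and Cxcl1 rose 32.1-fold (log2 5.00 ± 0.41 SE, edgeR adjusted p = 6.853e-06). In Q111-T the means of Cxcl2 and Cxcl3 were 16.7-fold and 13.8-fold the floor in Q111-C, a lower bound for their rise. The fitted log2 changes of these 2 genes between Q111-T and Q111-C were 6.23 ± 1.34 and 6.86 ± 1.23 SE (edgeR adjusted p = 0.00672 and 0.00214). They depend on how a group near 0 is treated. Without Q111-C replicate 3, the only library of its group with a count for either gene, they were 10.49 and 10.22. Each of these calls was made in all 23 alternatives. The median log2 change of the 4 genes was 6.55, or 4.53 with Cxcl2 and Cxcl3 at their bounds, against -0.005 over all genes. The Q111-T libraries lay above those of Q111-C for every gene of the 4, as they did for 19.8% of all genes tested, while 29.8% lay wholly below, and an exact permutation test gave p = 0.1, the smallest that 3 libraries against 3 allow.

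**Figure D2:**
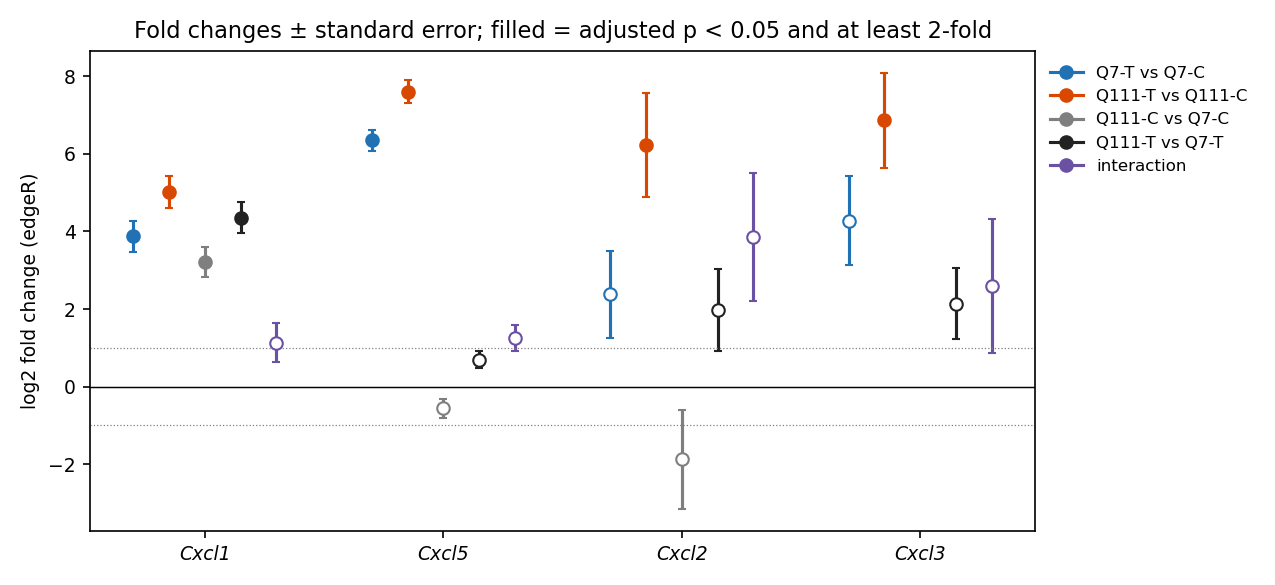
Fitted log2 fold changes of the 4 genes in the 4 pairwise comparisons, and the interaction (the response of Q111 minus that of Q7), as points with standard errors, filled where the change was called. Both responses of Cxcl1 and Cxcl5 are filled, Cxcl1 alone is filled between the lines, no interaction is filled, and Cxcl3 has no point for Q111-C vs. Q7-C because both groups were at the floor.

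Between the nontreated lines, Q111-C against Q7-C, Cxcl1 was the only gene of the 4 to differ. It was 9.26-fold higher in Q111-C (95% interval 5.18 to 16.6, log2 3.21 ± 0.38 SE, edgeR adjusted p = 9.342e-05), where 7.62% of all genes tested were called higher and 7.61% lower, and it was called in all 23 alternatives. Cxcl5 had a log2 difference of -0.56 ± 0.25 SE (edgeR adjusted p = 0.147), with an interval from 0.462-fold to 0.996-fold. Cxcl2 had 0, 7 and 23 estimated counts in Q7-C and 0, 0 and 8 in Q111-C, and it did not pass (edgeR adjusted p = 0.35). Its fitted log2 difference went from -0.59 without Q7-C replicate 3 to -6.12 without Q111-C replicate 3, so these counts allow no fold change. Cxcl3 was at the floor in both lines, which allows no fold change either. The median of the 4 fitted log2 differences was -0.50, against -0.020 over all genes. It includes Cxcl2 and Cxcl3, whose counts allow no fold change, so no direction is read from it.

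Between the treated lines, Q111-T against Q7-T, Cxcl1 was again the only gene called. It was 20.4-fold higher in Q111-T (95% interval 11.1 to 37.4, log2 4.35 ± 0.40 SE, edgeR adjusted p = 1.189e-05), where 13.3% of all genes tested were called higher and 11.2% lower. Without Q7-T replicate 2 the log2 difference was 4.05. Cxcl5 was 1.61-fold higher (95% interval 1.16 to 2.24, edgeR adjusted p = 0.0271), which is below the 2-fold limit, and 3 of 23 alternatives called it. All 3 were limma fits to TPM, in which the ratio of Cxcl5 was 2.05 ± 0.77 (SD). On the log2(TPM + 0.5) scale the median of all genes was itself shifted by 0.34 in this comparison and by 0.27 between the nontreated lines, against -0.16 and -0.10 for the responses of Q7 and Q111 cells. Of all calls between the treated lines, 54.2% were higher in Q111-T by edgeR, 67.2% with library totals in place of TMM and 77.1% to 79.8% by limma, and between the nontreated lines edgeR called 1229 genes higher and 1227 lower in Q111-C while 66.0% to 66.9% of limma's calls were higher. Cxcl2 and Cxcl3 had log2 differences of 1.98 ± 1.05 and 2.14 ± 0.92 SE (edgeR adjusted p = 0.158 and 0.0883). Their groups did not overlap, which also held for 33.9% of all genes tested in this direction and 12.5% in the other, and 4 and 5 of 23 alternatives called them. Without Q7-T replicate 2 the log2 difference of Cxcl2 was 1.56. The median log2 difference of the 4 genes was 2.06, against -0.029 over all genes.

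The interaction asks whether the response itself differed between the lines, and it was called for 0 of the 4 genes, where 3.52% of all genes tested were called higher and 1.2% lower. At an unadjusted p under 0.05 there were 3 of the 4, all higher, where 11.2% of all genes tested were higher and 8.66% lower at this p. DESeq2 called 1, Cxcl5 (adjusted p = 0.0077), where it called 5.73% of all genes higher and 2.5% lower. For Cxcl5 the response was larger in Q111 cells by 1.25 ± 0.33 SE on the log2 scale (95% interval 0.52 to 1.98, edgeR adjusted p = 0.0528). It passed without Q7-C replicate 1 (1.39, edgeR adjusted p = 0.0329) and without Q7-T replicate 1 (1.39, edgeR adjusted p = 0.0404). For Cxcl1 the difference of the responses was 1.14 ± 0.50 SE (95% interval 0.045 to 2.23, edgeR adjusted p = 0.231), 0.83 without Q7-T replicate 2 and 0.73 without Q7-C replicate 2. For Cxcl2 and Cxcl3 it was 3.85 ± 1.65 and 2.58 ± 1.73 SE (edgeR adjusted p = 0.22 and 0.451). Both rest on groups near 0. That of Cxcl2 was 8.12 without Q111-C replicate 3 and 2.59 without Q7-C replicate 3, and that of Cxcl3 was 5.94 without Q111-C replicate 3 and -1.24 without Q7-C replicate 2.

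The make-up of the 4 chemokines was then compared. Cxcl1 gave 90.0 ± 3.96% of their summed TPM in Q7-C and 99.3 ± 0.20% in Q111-C, and after treatment 63.8 ± 9.44% in Q7-T and 95.9 ± 0.26% in Q111-T (SD, n = 3). Cxcl5 gave 8.73 ± 2.97% and 0.673 ± 0.233% in the nontreated lines, and 35.7 ± 9.52% and 3.94 ± 0.25% in the treated ones, Q7 cells first. In Q7-T replicate 2 the shares of Cxcl1 and Cxcl5 were 53.0% and 46.6%. They were 68.1% and 31.3% in replicate 1, and 70.4% and 29.1% in replicate 3. The mean shares of Cxcl2 and Cxcl3 were 0.331% and 0.163% in Q7-T, and 0.101% and 0.0504% in Q111-T. The shares of Cxcl1 and Cxcl5 did not overlap between Q7-T and Q111-T (exact permutation test, p = 0.1 for each, the smallest possible), and they were nearly the same when computed from estimated counts. As a ratio of TPM, Cxcl1 exceeded Cxcl5 9.86, 16.8 and 7.49 times in the Q7-C libraries, 2.18, 1.14 and 2.42 times in Q7-T, 173.9, 105.5 and 195.4 times in Q111-C and 26.4, 23.5 and 23.5 times in Q111-T. The ratio was lower after treatment in both lines and higher in Q111 than in Q7 cells in either state, without overlap between any of these groups. The sum of the 4 genes went from 7.92 ± 3.87 to 145.4 ± 73.5 TPM with treatment in Q7 cells, and from 80.7 ± 21.8 to 2485 ± 183.5 TPM in Q111 cells.

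**Figure D3:**
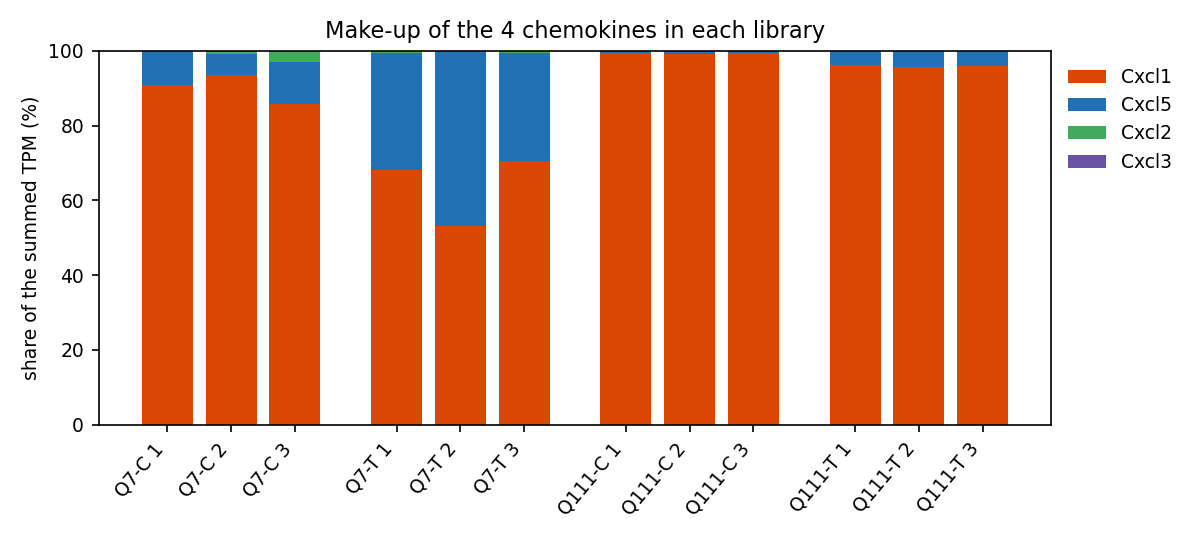
Share of each of the 4 chemokines in their summed TPM (%, stacked to 100) for each of the 12 libraries. Cxcl5 takes 35.7% on average in Q7-T (29.1% to 46.6%, the highest in replicate 2) and 3.94% in Q111-T, and Cxcl2 and Cxcl3 are hardly visible.

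Of the other CXC ligands, Ppbp is the closest in kind, as it encodes an ELR chemokine that acts on CXCR2 after processing (CXCL7), and it lies between Cxcl5 and Cxcl3 at chr5:90768518-90770063. Its ELR stretch was
Ppbp: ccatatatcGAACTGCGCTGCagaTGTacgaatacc
Ppbp was at 0, 1.12 and 0.962 TPM in nontreated Q7 cells and at 1.22, 0.379 and 0 after treatment, and in Q111 cells at 38.5, 38.1 and 59.7 before and 208.8, 294.9 and 203.2 after it. All of its Q111 libraries lay above all of its Q7 libraries. Of all genes tested, 38.8% were higher without overlap in Q111-C than in Q7-C and 12.6% lower. Q111-C exceeded Q7-C by 5.80 on the log2 scale (SE 1.01, edgeR adjusted p = 0.00138) and Q111-T exceeded Q7-T by 8.52 (SE 1.13, edgeR adjusted p = 1.601e-04). The response of Ppbp in Q111 cells had a log2 change of 2.50 ± 0.83 SE and did not pass (edgeR adjusted p = 0.0589), though 8 of 23 alternatives called it and the groups did not overlap. In Q7 cells its log2 change was -0.22 (edgeR adjusted p = 0.953).

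Among the 11 other CXC ligands listed, 7 could be tested. In Q7 cells 4 rose and 0 fell, and these were Cxcl9, Cxcl10, Cxcl11 and Cxcl16. The first 3 are interferon-induced ligands of CXCR3, the receptor of activated T cells, and Cxcl16 is a ligand of CXCR6. In Q111 cells 5 rose and 1 fell, and of these 5 calls that of Cxcl14 rests on groups that were both at the floor and was made in 9 of 23 alternatives. Of all genes tested, 2.93% rose and 1.11% fell in Q7 cells, and 8.28% and 2.96% in Q111 cells. Cxcl10 had means of 8.22 and 465.4 TPM in nontreated and treated Q7 cells and 89.7 and 3777 TPM in Q111 cells. Its level in Q111-C exceeded that in Q7-C by 3.20 ± 0.36 SE on the log2 scale (edgeR adjusted p = 5.92e-05) and its log2 rise was 5.998 in Q7 and 5.51 in Q111 cells. Cxcl9 resembled Cxcl5 in that it was at 1.22 and 1.23 TPM in the nontreated lines, and it reached 101.4 TPM in Q7-T and 515.6 in Q111-T. Cxcl12, a ligand of CXCR4 that is usually made constitutively, fell by 1.67 in Q111 cells (edgeR adjusted p = 5.25e-04) and had 15.7 TPM in Q7-C against 4.65 in Q111-C. The median fitted log2 change over the 7 ligands was 4.92 in Q7 cells and 5.51 in Q111 cells. With Cxcl14 left out of the latter because both of its Q111 groups were at the floor, it was 4.47. That value does not cover the same genes as the median in Q7 cells. The receptors of the neutrophil-attracting ligands were hardly detected, since Cxcr1, Cxcr2 and the scavenging receptor Ackr1 each had group means of 0.0825 TPM or less and none of the 3 could be tested.

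The genes flanking the cluster were examined for their position. Within 500 kb on either side of the 4 genes there were 19 protein-coding genes in the annotation, of which 15 were not among the 4 and 7 of these were tested. In Q7 cells 0 of the 7 were called, where 2.93% of all genes tested were called higher and 1.11% lower. In Q111 cells 3 rose, where 8.28% of all genes tested were called higher and 2.96% lower. The 3 were Ereg, Areg and Btc, which encode the EGF receptor ligands epiregulin, amphiregulin and betacellulin. Ereg was at 4.28 and 7.05 TPM in nontreated and treated Q7 cells, and at 16.2 and 205.0 TPM in Q111 cells, and its response was larger in Q111 cells by 2.92 on the log2 scale (edgeR adjusted p = 0.00386). Areg was at 27.5 and 23.7 TPM in Q7 cells and at 5.33 and 30.4 TPM in Q111 cells, and the nontreated lines differed by -2.73 on the log2 scale (edgeR adjusted p = 3.04e-05). Mthfd2l, a mitochondrial folate enzyme whose gene lies between Cxcl2 and Ereg, had log2 changes of -0.032 and 0.027 in the 2 responses and 0.067 between the nontreated lines.

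**Figure D4:**
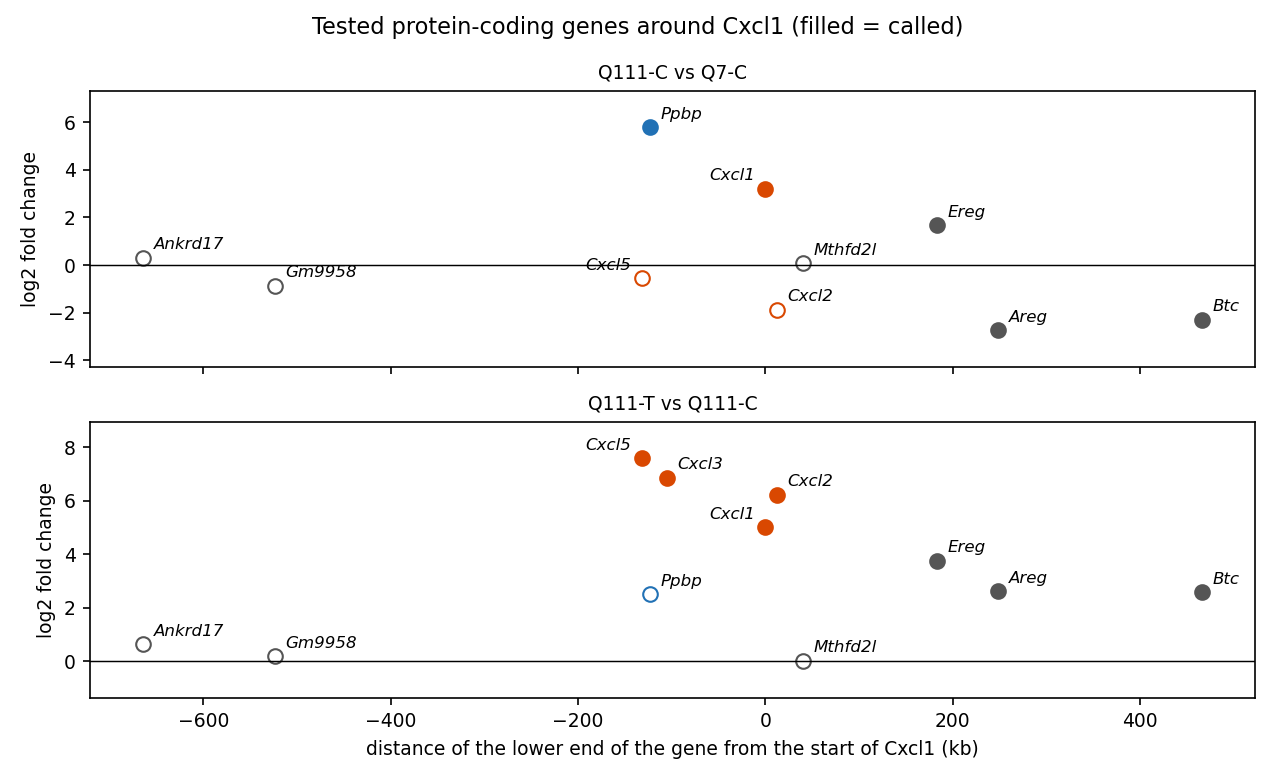
Log2 fold change of the tested protein-coding genes around Cxcl1 against distance from the start of Cxcl1 (kb), for the nontreated lines (top) and for the response of Q111 cells (bottom), with the 4 chemokines in orange, Ppbp in blue and filled points for called changes. Ppbp (log2 5.80) and Cxcl1 (3.21) are the highest points of the upper panel while Cxcl5, the neighbour of Ppbp, is at -0.56, and Mthfd2l stays near 0 in both.

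The receptors and adaptors through which LPS, IFNγ, IL-1, TNF and IL-17 act were present in both lines. Of the 16 genes, 3 rose in Q7 cells (Cd14, Myd88 and Traf3ip2), 2 rose in Q111 cells (Cd14 and Myd88) and 0 fell, with median log2 changes of 0.25 and 0.30. Of all genes tested, 2.93% were called higher and 1.11% lower in the Q7 response, and 8.28% and 2.96% in the Q111 response. These shares also apply to the counts of the lists that follow. Between the nontreated lines 4 of the 16 were higher in Q111-C and 0 lower, where 7.62% of all genes tested were called higher and 7.61% lower. The 4 were Tlr4 (log2 1.49), its co-receptor Cd14 (2.04), Ifngr2 (1.01) and the IL-1 receptor Il1r1 (2.19). Tlr4 had 1.73 TPM in Q7-C and 5.81 in Q111-C, Cd14 2.93 and 15.6, and Il1r1 3.48 and 19.3. All 4 were called higher between the treated lines as well, where 13.3% of all genes tested were called higher.

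Of the 12 genes listed as transcription factors or the cofactor of these promoters, 4 rose in Q7 cells and 7 in Q111 cells, with 0 lower in either and median log2 changes of 0.75 and 2.36. Nfkbiz rose by nearly the same amount in both lines, by 3.00 ± 0.29 and 2.96 ± 0.29 SE. Its level went from 6.18 to 45.5 TPM in Q7 cells and from 15.4 to 113 TPM in Q111 cells. The AP-1 subunits Fos, Jun and Junb had log2 changes of -0.37, -0.04 and 0.76 in Q7 cells and rose by 3.54, 2.21 and 2.76 in Q111 cells, and for each the interaction was called (edgeR adjusted p = 9.364e-04, 0.00752 and 0.00781). Fos was at 1.00 TPM in Q7-T and 24.1 in Q111-T. The other way round, Cebpd rose more in Q7 cells (interaction -1.90, edgeR adjusted p = 0.0298).

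Of the 9 genes of feedback and mRNA decay, 3 rose in Q7 cells and 6 in Q111 cells, 0 fell, and the medians were 0.82 and 1.09. Zc3h12a rose by 3.14 in Q7 cells and by 3.21 in Q111 cells. Zfp36 was at 7.07 and 11.0 TPM in nontreated and treated Q7 cells and at 11.1 and 53.3 TPM in Q111 cells, and its response was larger in Q111 cells by 1.56 on the log2 scale (edgeR adjusted p = 0.00327). Tnfaip3, which encodes the NF-κB inhibitor A20, rose by 1.40 in Q7 and by 2.81 in Q111 cells, the first of which held in 6 of 23 alternatives. The word TATTTAT, typical of AU-rich elements and counted after the values had been seen, occurs 6 times in the Cxcl1 transcript, 7 times in Cxcl2, 2 times in Cxcl3 and 1 time in Cxcl5, and 0 times in Ppbp. Among 8459 protein-coding transcripts of 953 to 1575 bases, 0.0828% hold at least 6 and 10.4% at least 1.

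Other factors that act on neutrophils were also examined. Of 12 genes, 8 were tested, of which 4 rose in Q7 cells and 7 in Q111 cells, with 0 lower. Csf3, which encodes the granulocyte growth factor G-CSF, was at 0.244 and 0.948 TPM in nontreated and treated Q7 cells and at 0.262 and 34.0 TPM in Q111 cells, and its response differed between the lines by 4.85 on the log2 scale (edgeR adjusted p = 0.00338). Csf2, encoding GM-CSF, stood at 0.506 TPM in Q7-T and 32.9 in Q111-T, and Il6 at 12.7 and 618. Csf2 did not exceed the floor in any library of Q111-C, and its mean in Q111-T was 82.5-fold this floor. The interaction was called for both. That of Csf2 was fitted at 7.75, a value that depends on how the group near 0 is treated and ran from 4.72 to 11.69 over 22 alternatives, of which the one without Q7-C replicate 2 did not call it. That of Il6 was 5.48 and was called in 12 of 22 alternatives. Lcn2 rose by 7.37 in Q7 and by 7.83 in Q111 cells and reached 276 and 444 TPM, and thus, like Cxcl5, was not called between the treated lines. Selp, an adhesion molecule for leukocytes, had 19.3 to 23.1 TPM in the Q111-C libraries and 0.115 to 0.207 TPM in those of Q7-C (edgeR adjusted p = 1.25e-05). Over the 8 genes the median log2 change was 2.14 in Q7 and 5.88 in Q111 cells with genes against a group at the floor set to their bounds, or 3.59 and 8.35 as fitted.

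For each chemokine, the 5 genes with the most similar pattern were found by Pearson's r of log2(CPM + 1) over the 12 libraries, which form 4 groups, so that r mainly compares 4 levels. For Cxcl5 they were Iigp1 (r = 0.996), Fas, Mpeg1, Serpina3f and Ms4a4d (r = 0.993). Iigp1, an interferon-inducible GTPase, was at 2.11 and 2.73 TPM in nontreated Q7 and Q111 cells and at 233.4 and 493.9 TPM after treatment. For Cxcl1 they were Oas1b (r = 0.992), Rbm43, Ifi44, Ccbe1 and Herc6 (r = 0.988). Oas1b had 0.22 and 4.25 TPM in nontreated Q7 and Q111 cells and 4.62 and 68.6 TPM after treatment, with similar levels in Q7-T and Q111-C like Cxcl1. For Cxcl2 the closest were Vhl (r = 0.975), Map3k8, Il6, Aida and Nfe2l2, and for Cxcl3 Serpind1 (r = 0.985), Pnp, Gpr84, Csrnp2 and Zup1. The lists of Cxcl2 and Cxcl3 were not stable, as 0 to 4 and 1 to 5 of their 5 genes remained when 1 library was left out, against 3 to 5 for Cxcl5 and 2 to 5 for Cxcl1. On log2(TPM + 0.5), 2 of the 5 genes of Cxcl1 remained, 2 of Cxcl2, 1 of Cxcl3 and 4 of Cxcl5. Among the 4 chemokines r ran from 0.78 (Cxcl1 and Cxcl5) to 0.94 (Cxcl2 and Cxcl3), and Ppbp had r = 0.80 with Cxcl1 and 0.28 with Cxcl5.

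The labelled identity of the cells was checked by marker genes. The neuronal markers Snap25 and Syt1 had group means of 0.00833 TPM or less, and Stmn2 was at 73.5 and 78.4 TPM in Q7-C and Q7-T but 2.00 and 2.41 in Q111-C and Q111-T. Tubb3 was at 16.9 and 74.6 TPM in nontreated and treated Q7 cells and at 3.91 and 24.7 TPM in Q111 cells, and it rose in both lines (log2 2.29 and 2.77). Map2 fell from 7.93 to 2.13 TPM in Q7 cells (log2 -1.80, edgeR adjusted p = 0.00868) and was at 5.90 and 5.61 TPM in Q111 cells (log2 0.015). Of 5 markers of medium spiny neurons, the main neurons of the striatum, 3 were in the table. They summed to 0.29 to 0.836 TPM in Q7-C, 0.173 to 0.636 in Q7-T, 5.18 to 6.80 in Q111-C and 2.24 to 2.53 in Q111-T. Of these, Penk, which encodes the enkephalin precursor, exceeded its Q7-C level in Q111-C (4.93 against 0.143 TPM, log2 4.88 ± 1.43 SE, edgeR adjusted p = 0.0295, called in 18 of 23 alternatives with 2.39 to 11.01), and Ppp1r1b (DARPP-32) was at 1.12 and 0.303 TPM and did not pass (edgeR adjusted p = 0.281). Mesenchymal markers (Vim, Col1a1, Col1a2, Col3a1, Pdgfrb and Acta2) summed to 4243 to 4838 TPM in Q7-C and 3285 to 3713 in Q7-T, and to 3671 to 3829 in Q111-C and 1502 to 1622 in Q111-T. With the treatment under which the chemokines rose, 3 of the 6 fell in Q7 cells (Col1a1, Col1a2 and Col3a1), 4 of the 6 fell in Q111 cells (these and Pdgfrb), and 0 rose. The lines did not differ in 1 direction. Between the nontreated lines Acta2 was lower in Q111 cells (1670 against 43.7 TPM), and Col1a1 (265.1 against 790.6), Col1a2 (14.6 against 250.2) and Col3a1 (27.7 against 136.3 TPM) were higher. Of 8 markers of macrophages or microglia, which make these chemokines in tissue, 5 were in the table, and their sum was 5.93 to 8.32 TPM in nontreated and 8.81 to 15.3 in treated Q7 cells, and 14.5 to 16.8 and 40.8 to 58.0 TPM in Q111 cells. The sum thus moved in the same direction as Cxcl1. Nearly all of it was Cd68 (48.8 TPM in Q111-T), while Ptprc, Itgam and Adgre1 had group means of 0.0254 TPM or less and Csf1r of 0.128 to 0.361 TPM, with the highest in Q111-T. Of 6 neutrophil markers 3 were in the table, and they summed to 0.412 TPM or less in every library. Of 4 endothelial markers all were in the table and none passed the filter. They summed to 0.224 to 0.361 TPM in Q7-C, 0.397 to 1.58 in Q7-T, 0.0686 to 0.389 in Q111-C and 0.882 to 1.65 in Q111-T, so that the sums were higher after treatment in both lines. The 4 astrocyte markers summed to 0.413 to 0.983 and 0.411 to 0.818 TPM in nontreated and treated Q7 cells, and to 0.369 to 0.478 and 1.55 to 1.93 TPM in Q111 cells. In Q111-T most of this sum was Aldh1l1, which rose from 0.0384 to 1.32 TPM in Q111 cells (log2 5.13 ± 1.21 SE, edgeR adjusted p = 0.0116, and 1.16 to 10.64 in the alternatives), while Gfap, Aqp4 and S100b had group means of 0.333 TPM or less. The part of all these marker genes in the results on the chemokines was not tested. In these bulk libraries a larger number of expressing cells and more mRNA per cell cannot be told apart.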

How the data were processed

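RNA-seq of 12 libraries of mouse striatal lines was analysed. Stranded poly(A) libraries were sequenced from both ends (study methods), and the submitters' processing notes name cutadapt, HISAT2, StringTie and GRCm38. The authors deposited 1 table with a TPM value and an unnormalized estimated count per gene and library, without pooling replicates. Counts were rounded, scaled by TMM and fitted with edgeR 4.0.16 (quasi-likelihood test, R 4.3.3) over all 12 libraries with a mean per group. Genes with at least 0.5 TPM in 3 libraries were kept (16127), and p-values were adjusted over them by Benjamini-Hochberg. Standard errors were derived from the F statistic. Alternatives used DESeq2 1.42.0, limma 3.58.1 on log2(TPM + 0.5), 0.1 or 1, other scaling, filters and counts divided by 4, the replicate number as a block, and leaving out each library. The test was checked on simulated counts. TPM and shares were compared by two-sided exact permutation tests in Python 3.11.15, and ratios of TPM were described without a test. The genes named were the 4 chemokines, the genes of fixed lists, the 5 genes most like each chemokine, and protein-coding neighbours within 500 kb. The 4 chemokines and the lists were chosen with earlier results of these data known, so nothing in them is independent support. Listed genes not named in the text are counted with their list. Il1b, the promoter of Cxcl5 and 1 gene left out of the lists are not reported here.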

Additional observations from a re-analysis of the deposited data

Results flagged for a closer look

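No chemokine of the 4 met a criterion for a closer look: groups of 3 are too small to test for an outlying library, and no interaction passed. Among the other genes examined, the response to IFNγ/LPS differed between the lines for 18 by edgeR's interaction term (adjusted p under 0.05), given here as the log2 response of Q111 minus that of Q7 cells. Of the CXC ligands, it was 2.22 for Cxcl9, 2.22 for Cxcl11, -2.37 for Cxcl12 and -1.50 for Cxcl16. Of the transcription factors, it was 3.91 for Fos, 2.25 for Jun, 2.00 for Junb and -1.90 for Cebpd. It was 1.56 for Zfp36, 4.85 for Csf3, 7.75 for Csf2 (4.72 to 11.69 over the alternatives, as its Q111-C libraries were at or under the floor of 12 estimated counts) and 5.48 for Il6. Of the neighbours of the cluster, it was 2.92 for Ereg, 2.77 for Areg and 3.73 for Btc. Of the cell type markers, it was 1.81 for Map2, -0.91 for Col1a2 and -1.20 for Pdgfrb. The call for Cxcl11 was made in 8 of 22 alternatives, that for Il6 in 12, that for Cebpd in 15, that for Map2 in 7 and that for Pdgfrb in 11. The difference for Col1a2 is under 2-fold.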

How the results depend on the processing

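The number of the 4 chemokines called was within 1.5 times its value in 102 of 114 alternatives, and 407 of 433 alternative fold changes of single chemokines kept both direction and call. The latter leave out Cxcl3 in Q111-C vs. Q7-C, where both groups were at the floor and the fitted sign turned in 3 of 23 alternatives (-3.79 to 3.39). The 25 changes that passed only in an alternative concern Cxcl2, Cxcl3 and Cxcl5. In Q111-T vs. Q7-T, where 1 was called, DESeq2 and the fit to only the 2 groups compared called 2, limma on log2(TPM + 0.5) and on log2(TPM + 0.1) called 4, and limma on log2(TPM + 1) and counts divided by 4 called 3. These limma fits called 18.2%, 20.0% and 15.3% of all genes higher in that comparison. For the interaction, where 0 were called, limma with 0.5 called 2, DESeq2 and limma with 0.1 and with 1 called 1, and leaving out 1 library gave 0 to 1. When 1 library was left out, the interaction of Cxcl3 ran from -1.24 to 5.94 and that of Cxcl2 from 2.59 to 8.12. From estimated counts in place of TPM, the share of Cxcl3 was 0.32% in Q7-T and 0.0947% in Q111-T (the cause was not tested). Of 75 genes in the lists, markers included, or near the cluster, 0 called changes turned in sign, but only 114 of 148 were called in every alternative. Those of Nfkbib in Q111 cells (8 of 23), Csf3 in Q7 cells (11 of 23) and Dusp1 in Q111 cells (15 of 23) were among the rest. Deviations of same-numbered libraries from their group means correlated at r -0.416 to 0.303 (over 0.1 in 6 of 18 pairs). Of the 12 libraries, 1 was most like one of its own number. With 3 libraries in each group this cannot settle whether the replicate numbers pair them, and the labels do not say. With the replicate block the counts of called chemokines were 2, 4, 1, 1 and 0, as without it. Cxcl2 and Cxcl3 rest on few counts, and their differences between the treated lines passed in 4 and 5 of 23 alternatives.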
